A study of Mus musculus with 6 samples.

Results

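The liver takes up, stores and releases most of the vitamin A of the body, and 9 genes of this handling were described here out of the 54446 genes listed for the liver transcriptomes of WT and *Fmo5*-/- mice. The genes were chosen by name, with earlier results of these data known. They comprise *Rbp4*, *Lrat*, *Retsat*, *Rdh11*, *Dhrs3*, *Bco1*, *Aldh1a1*, *Aldh1a7* and *Cyp26a1*, all of which were found and passed the filter on low counts. The study had already reported *Retsat*, *Rbp4* and *Aldh1a1* as lower in these *Fmo5*-/- mice. Shares over all genes given beside the 9 are therefore a description and no test of them as a set. *Fmo5* encodes a flavin-containing monooxygenase of hepatocytes. Liver RNA was sequenced from 3 WT C57BL/6J males and from 3 *Fmo5*-/- males of a line made on the C57BL/6J background, at 32 weeks of age, with 1 library per mouse. Facility and chow diet were shared by the genotypes, whose cages stood side by side.

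Between 44886286 and 52338675 reads per library were counted on genes, or 66.2% to 69.2% of those listed. A count of 0 allows up to 3 counts or 0.0573 to 0.0668 counts per 1e6 counts, for counting error only. *Fmo5* itself was lower in the *Fmo5*-/- mice by 96.9% (edgeR adjusted p = 2.79e-07). Values are normalized counts unless stated, which are the counts brought to a common library size with TMM factors. A gene was called where edgeR's quasi-likelihood test gave an adjusted p under 0.05 and the mean normalized count reached 500. By edgeR, 0 of the 8 hepatocyte markers were called, 0 had an unadjusted p under 0.05 and DESeq2 called 0. Of 9 Kupffer cell markers, all had a higher mean in *Fmo5*-/- mice, 8 without overlap, and all 9 had an unadjusted p under 0.05 (edgeR). Their summed level was 11531 to 13741 in WT mice and 18111 to 32677 in *Fmo5*-/- mice, with *Clec4f* called by edgeR and 7 of the 9 by DESeq2. All 7 lymphocyte markers had a higher mean, 4 without overlap, with 0 called by either tool and 4 at an unadjusted p under 0.05 (edgeR), and their summed level was 238 to 387 in WT mice and 415 to 949 in *Fmo5*-/- mice. Of 12 perivenous hepatocyte markers, 10 had a higher mean and edgeR called 1 (*Cyp1a2*, higher) as DESeq2 called 1, with summed levels of 418250.0 to 572015 and 486570.0 to 581513. Of 10 periportal markers, 7 had a lower mean, 4 without overlap, with 0 called by edgeR, 4 at an unadjusted p under 0.05 and 3 called by DESeq2, and summed levels of 329495 to 340839 and 273834 to 343748. Of 9 sinusoidal endothelial markers, 7 had a lower mean, 4 without overlap, and 1 was higher without overlap. In edgeR 0 were called and 5 had an unadjusted p under 0.05, among them the 1 that was higher without overlap. DESeq2 called 2, and summed levels were 13592 to 15837 and 13056 to 13939. These counts stand beside shares over all genes tested. Without overlap, 13.5% were lower (21.9% at a mean of 500 or more) and 13.9% higher. The mean was lower for 49.2% (64% at a mean of 500 or more). An unadjusted p under 0.05 (edgeR) was reached by 21.8%, and 0.753% were called by edgeR and 4.78% by DESeq2. Both shares of calls include genes with a mean under 500, which could not be called. At a mean of 500 or more, edgeR called 1.61%, and the DESeq2 share was not computed. The part of these marker differences in the results that follow was not tested. In bulk liver, fewer cells of a type and less RNA per cell cannot be told apart.

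Vitamin A reaches the liver as retinyl ester, which is hydrolysed in hepatocytes to retinol. Retinol is either released into plasma on its carrier or passed to hepatic stellate cells and esterified again for storage. Oxidation of retinol gives retinal, and oxidation of retinal gives retinoic acid, the ligand of the nuclear retinoic acid receptors. Reductases return retinal to retinol, and cytochromes P450 of the CYP26 family clear retinoic acid.

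Of the 9 genes, 1 was called, and it was lower in *Fmo5*-/- mice. This was *Retsat*, which encodes the enzyme that saturates a double bond of retinol. Over all 16734 genes tested, 0.753% were called and 0.496% were called and lower, and among the 7819 genes with a mean of 500 or more, 1.61% were called. The 3 *Fmo5*-/- mice lay below the 3 WT mice in 4 of the 9 genes, namely *Retsat*, *Rbp4*, *Aldh1a1* and *Aldh1a7*, against 13.5% of all genes tested and 21.9% of those with a mean of 500 or more. In none of the 9 did the *Fmo5*-/- mice all lie above the WT mice, against 13.9% of all genes tested. The mean was lower in *Fmo5*-/- mice for 8 of the 9, and higher for *Bco1*. A lower mean was found for 49.2% of all genes tested and for 64% of those with a mean of 500 or more, to which 8 of the 9 genes belong. The median log2 fold change of the 9 genes was -0.23, against 0.0058 for all genes tested and -0.062 for those with a mean of 500 or more. DESeq2 on the same counts called 3 of the 9, *Retsat*, *Aldh1a1* and *Rbp4*, all lower, against 4.78% of its tested genes. That share includes genes with a mean under 500, which could not be called. Among genes with a mean of 500 or more the DESeq2 share is higher and was not computed.

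**Figure D1:**
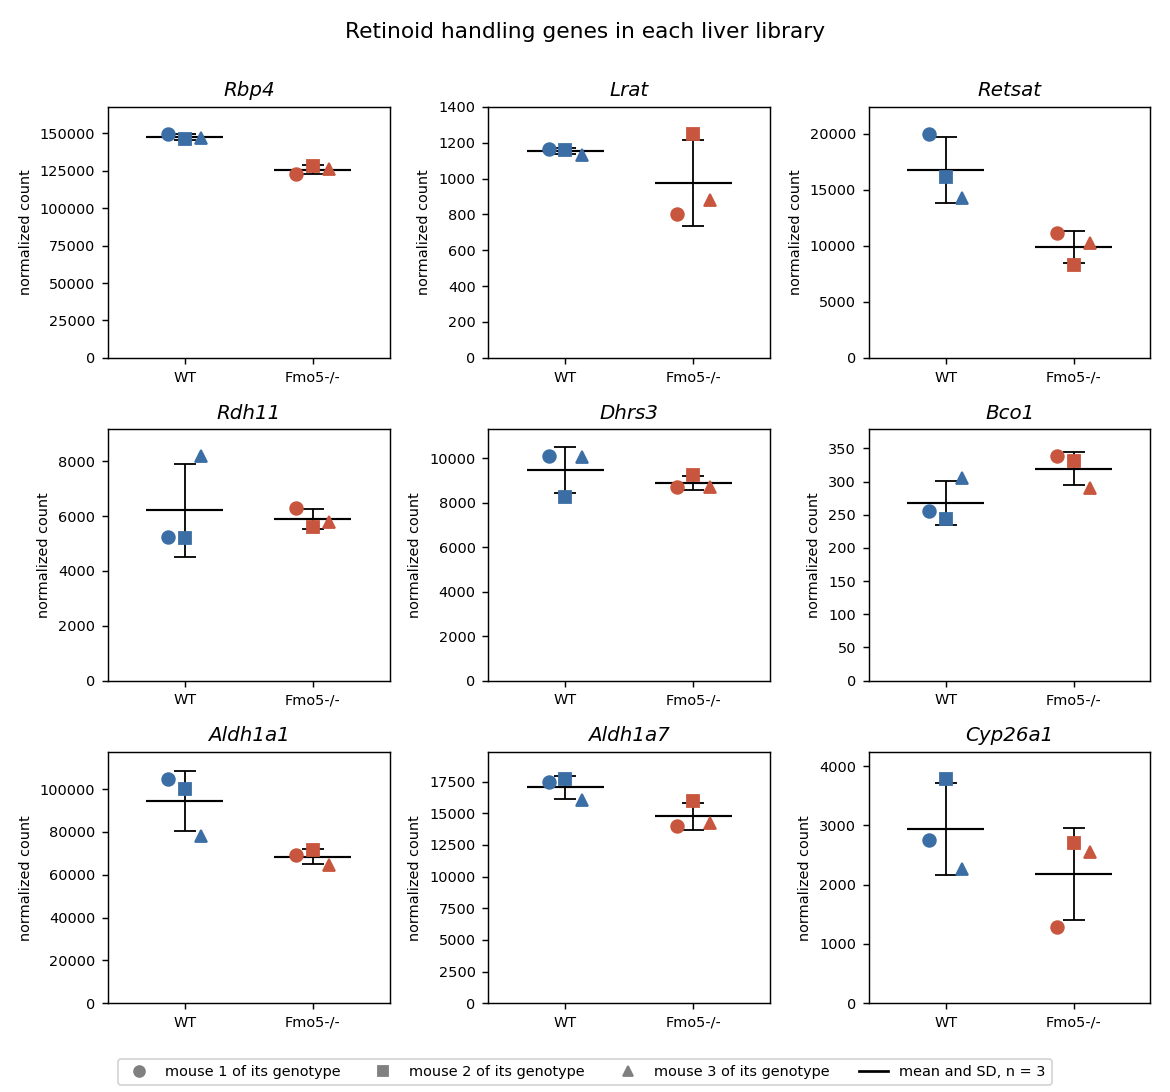
Normalized counts (y axes, each from 0) of the 9 genes in the 3 WT (blue) and 3 *Fmo5*-/- (red) mice, with the mean and SD of each genotype in black and 1 symbol per mouse. All red points lie below all blue points for *Rbp4*, *Retsat*, *Aldh1a1* and *Aldh1a7*, while the points overlap for the other 5 genes.

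Levels were compared between genes per kilobase of exon and per 1e6 counts. *Rbp4* was the most abundant, with a mean of 2254 in WT mice. It was followed by *Aldh1a1* at 391, *Aldh1a7* at 169, *Retsat* at 97.3, *Dhrs3* at 66.2, *Rdh11* at 36.8, *Cyp26a1* at 30.3, *Lrat* at 4.42 and *Bco1* at 2.16. Among WT mice, neighbours in this order did not overlap except *Rdh11* and *Cyp26a1*. In *Fmo5*-/- mice, *Retsat* was at 57.2 and *Dhrs3* at 62.1, and the pair overlapped. Their order depends on the counting, since reads of *Retsat* over an opposite gene are left out and *Dhrs3* loses none. With the counts of the 2 strands summed, which keeps those reads, a choice made after seeing the data, *Retsat* was at 73.0 (range 60.8 to 82.4) and *Dhrs3* at 62.1 (range 60.8 to 64.7), again with overlap. The other genes kept their places in both.

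**Figure D2:**
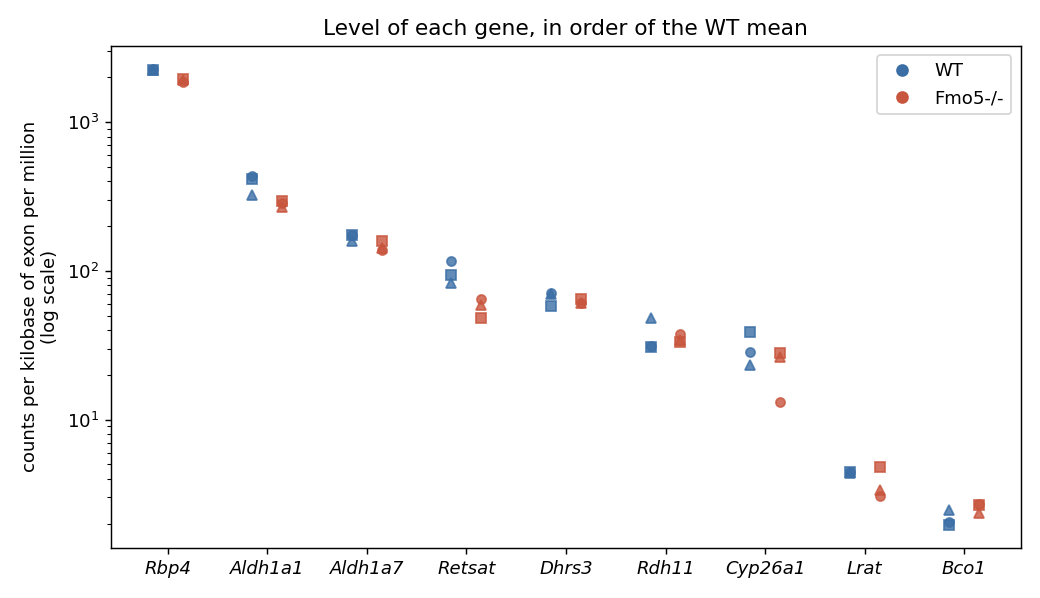
Counts per kilobase of exon per 1e6 counts (y axis, log scale) of the 9 genes in order of their WT mean, with 1 symbol per mouse, WT in blue and *Fmo5*-/- in red. *Rbp4* stands at 2254 and *Bco1* at 2.16 in WT mice, and *Retsat* and *Dhrs3* overlap in *Fmo5*-/- mice, where reads left out of *Retsat* as ambiguous lower its points.

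*Rbp4* (chromosome 19, 38116629 to 38125281 of mm10, minus strand) encodes the plasma carrier that hepatocytes load with retinol and secrete bound to transthyretin. Its counts were 149813, 146149 and 147184 in WT mice and 122767, 128293 and 126361 in *Fmo5*-/- mice. The mice of a genotype were close to each other, with coefficients of variation of 1.28% and 2.23%, and every *Fmo5*-/- mouse was below every WT mouse. The means were 147715 ± 1889 and 125807 ± 2804 (SD, n = 3 each). The log2 fold change of -0.23 (95% confidence interval -0.43 to -0.037) did not pass edgeR's test (adjusted p = 0.165). DESeq2 gave an adjusted p of 0.0372. In that test *Rbp4* was called, so its call depends on the tool. *Ttr*, the gene of transthyretin, had means of 342291 ± 42807 and 317983 ± 4623, and its log2 fold change was -0.11 (edgeR adjusted p = 0.63). The ratio of *Rbp4* to *Ttr* within a library was 0.436 ± 0.054 in WT mice and 0.396 ± 0.0107 in *Fmo5*-/- mice (two-sided exact permutation p = 0.3), with overlap between the genotypes.

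*Lrat* (chromosome 3, 82892579 to 82903973, minus strand) encodes the acyltransferase that esterifies retinol for storage, an enzyme of stellate cells in the liver. It lies 14.7 Mb from *Fmo5* on the same chromosome. Its counts were 1167, 1159 and 1134 in WT mice and 802, 1250.1 and 879 in *Fmo5*-/- mice. The WT mice were nearly alike, and the *Fmo5*-/- mice were spread around them, with the second above all WT mice. The means were 1153 ± 17.4 and 977 ± 239.7 (SD, n = 3 each), and the log2 fold change of -0.24 (95% confidence interval -0.59 to 0.11) did not pass edgeR's test (adjusted p = 0.404).

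The 16 stellate cell markers, among them *Reln*, *Des* and *Dcn*, had 0 calls by edgeR and 0 by DESeq2, and 14 of them had a higher mean in *Fmo5*-/- mice. An unadjusted p under 0.05 (edgeR) was reached by 3 of the 16 and by 21.8% of all genes tested. These 3 were all higher without overlap, against 13.9% of all genes tested. The summed level of the 16 was 19795 to 23430.3 in WT mice and 20667 to 27402 in *Fmo5*-/- mice. Its largest terms were *Dcn* and *Ecm1*, with WT means of 5698 and 5196. The ratio of *Lrat* to this sum was 0.0544, 0.0586 and 0.0484 in WT mice and 0.0388, 0.0456 and 0.0375 in *Fmo5*-/- mice. The ratios of the genotypes did not overlap, unlike the counts of *Lrat*. The part of the higher marker means in this was not tested. The difference between the genotypes in the mean of the log2 ratio was -0.41, with a two-sided exact permutation p of 0.1, the smallest that this test can give for 3 mice against 3, and 0.3 after adjustment over the 4 ratios computed.

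*Retsat* (chromosome 6, 72598475 to 72608425, plus strand) encodes the saturase named above, an oxidoreductase of the endoplasmic reticulum. Its counts were 20008, 16142 and 14234 in WT mice and 11109, 8279 and 10231 in *Fmo5*-/- mice. The highest *Fmo5*-/- mouse was below the lowest WT mouse, and the coefficients of variation were 17.5% in WT and 14.7% in *Fmo5*-/- mice. The means were 16795 ± 2942 and 9873 ± 1448 (SD, n = 3 each), and *Retsat* was called as lower by edgeR (adjusted p = 0.0494). The log2 fold change was -0.77, with a standard error of 0.15 and a 95% confidence interval of -1.11 to -0.43. DESeq2 gave an adjusted p of 6.3e-05.

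The call of *Retsat* by edgeR was close to its threshold. Of the 6 fits with a library left out, 2 called it. The call was lost without the first or second WT mouse or the first or second *Fmo5*-/- mouse, at adjusted p between 0.108 and 0.132, while the log2 fold change over the 6 fits stayed between -0.87 and -0.62. *Retsat* is also known from adipose tissue. Of 5 adipocyte markers only *Cfd* passed the filter on low counts. Summed, the 5 were at 456 to 1069 in WT mice and 43.2 to 140.4 in *Fmo5*-/- mice, nearly all of it *Cfd* (edgeR adjusted p = 0.0633), while *Adipoq*, *Plin1*, *Lep* and *Retn* were each between 0 and 45.5 in every library. Their part in the *Retsat* result was not tested.

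Over the 650 exon bases where *Retsat* lies opposite an unconfirmed gene model (*Gm45053*), reads counted without strand were left out as ambiguous. This removed 21.9% of the reads that the per-strand counts assign to *Retsat*. With the reads of 1 strand alone, the log2 fold change was -0.77 and the edgeR adjusted p 0.044. The 30 bases of RefSeq sequence that hold the TATAAA of the *Retsat* promoter (GRCm38.p6, chr6:72598562-72598591, plus strand, 5′ to 3′) are shown because *Retsat* was the gene called, with the TATAAA in capitals, at -30 to -25 from the RefSeq start.
Retsat: gggcctcagcTATAAAagccgagctcagcg
Promoters of RefSeq, from 250 bases before to 50 after a start, were matched by symbol for all 9 genes (14 windows), and TATAAA was found on either strand in 5 of these 14 windows, each of another gene, against 13.6% of all 32851 windows.

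*Rdh11* (chromosome 12, 79174337 to 79192293, minus strand) encodes a reductase of the endoplasmic reticulum that turns retinal into retinol. Its counts were 5244, 5208 and 8177 in WT mice and 6309, 5604 and 5776 in *Fmo5*-/- mice. The third WT mouse stood apart above the other 5 mice. The means were 6209.9 ± 1704 and 5896 ± 368 (SD, n = 3 each), and the log2 fold change was -0.075 (95% confidence interval -0.47 to 0.32, edgeR adjusted p = 0.845). Without the third WT mouse the log2 fold change was 0.18 (edgeR adjusted p = 0.297), so its sign rests on that mouse. The ratio of *Retsat* to *Rdh11* was 3.82, 3.1 and 1.74 in WT mice and 1.76, 1.48 and 1.77 in *Fmo5*-/- mice, and the genotypes overlapped (two-sided exact permutation p = 0.3).

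*Dhrs3* (chromosome 4, 144892827 to 144928209, plus strand) encodes another retinal reductase, which limits the formation of retinoic acid. Its counts were 10076, 8257 and 10031 in WT mice and 8688, 9233 and 8690.5 in *Fmo5*-/- mice, with the second WT mouse below all 3 *Fmo5*-/- mice. The means were 9455 ± 1037 and 8870.4 ± 314 (SD, n = 3 each), and the log2 fold change was -0.092 (95% confidence interval -0.32 to 0.13, edgeR adjusted p = 0.636).

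*Bco1* (chromosome 8, 117095854 to 117133720, plus strand) encodes the oxygenase that cleaves beta-carotene into retinal. Its counts were 255, 243 and 306 in WT mice and 338, 330.4 and 291 in *Fmo5*-/- mice. The third *Fmo5*-/- mouse was below the third WT mouse, so the genotypes overlapped. The means were 268 ± 33.1 and 319.7 ± 25.5 (SD, n = 3 each), and the log2 fold change was 0.25 (95% confidence interval -0.052 to 0.56, edgeR adjusted p = 0.318). The mean of 294 over the 6 libraries was under the limit of 500, so *Bco1* could not be called at any p.

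The *Bco1* promoter is shown because it was 1 of the windows with a direct repeat. It held AGGTCANAGGTCA, the direct repeat with a spacer of 1 base (DR1) known as a site for PPAR and RXR, on the minus strand at -56 to -44 from the RefSeq start. The bases from -150 to -12 are given (GRCm38.p6, chr8:117095715-117095853, plus strand, 5′ to 3′), with the repeat in capitals.
Bco1: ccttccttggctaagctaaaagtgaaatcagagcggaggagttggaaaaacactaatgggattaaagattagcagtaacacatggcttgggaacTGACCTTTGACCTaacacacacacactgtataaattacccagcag
Of all 32851 windows, 0.0396% held these letters on either strand, and no window of the other 8 genes did.

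*Aldh1a1* (chromosome 19, 20492715 to 20643465, plus strand) encodes a cytosolic aldehyde dehydrogenase that oxidizes retinal to retinoic acid. Its counts were 104728, 99869 and 78299.6 in WT mice and 69434, 71397 and 64585 in *Fmo5*-/- mice. All *Fmo5*-/- mice were below all WT mice, and the third WT mouse was the nearest to them. As a share of all gene counts, the second *Fmo5*-/- mouse (0.1584%) was above the third WT mouse (0.1534%). The means were 94299 ± 14067 and 68472 ± 3506 (SD, n = 3 each). The log2 fold change of -0.46 (standard error 0.12, 95% confidence interval -0.74 to -0.19) did not pass edgeR's test (adjusted p = 0.0818). DESeq2 called the gene (adjusted p = 0.006). Without the third WT mouse the log2 fold change was -0.58 and the edgeR adjusted p 0.0496. In the other 5 fits without 1 library the gene did not pass edgeR's test, and the adjusted p reached 0.241.

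*Aldh1a7* (chromosome 19, 20692953 to 20727562, minus strand) is a close relative of *Aldh1a1* in rodents and lies 49.5 kb from it. Its counts were 17472, 17703 and 16012.5 in WT mice and 13988, 15975 and 14263 in *Fmo5*-/- mice. The second *Fmo5*-/- mouse was just below the third WT mouse. As a share of all gene counts it was at 0.03545%, above the WT mice at 0.03137% to 0.03534%. The means were 17063 ± 917 and 14742 ± 1076 (SD, n = 3 each), and the log2 fold change was -0.21 (95% confidence interval -0.42 to -0.0025, edgeR adjusted p = 0.225). DESeq2 did not call the gene either (adjusted p = 0.157).

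Reads of the pair could be told apart for most of their length. Of all windows of 75 bases, the read length, 1.01% of those of *Aldh1a1* and 2.51% of those of *Aldh1a7* occur in both genes. The ratio of *Aldh1a7* to *Aldh1a1* was 0.167, 0.177 and 0.204 in WT mice and 0.201, 0.224 and 0.221 in *Fmo5*-/- mice. The third WT mouse lay among the *Fmo5*-/- mice (two-sided exact permutation p = 0.2, adjusted p = 0.3 over the 4 ratios).

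The promoters of the pair are shown because these neighbours share most of the sequence before their starts. For *Aldh1a1* this holds for the second of 2 RefSeq starts, whose window of 300 bases had 224 bases identical in alignment with that of *Aldh1a7*, or 74.7%. The first start had 57%. The bases from -150 to -12 are given 5′ to 3′, for *Aldh1a1* on the plus strand (GRCm38.p6, chr19:20601818-20601956) and for *Aldh1a7* on the minus strand (chr19:20727568-20727706). The capitals mark the longest run shared without a mismatch, 65 bases from -94 to -30 in both.
Aldh1a1: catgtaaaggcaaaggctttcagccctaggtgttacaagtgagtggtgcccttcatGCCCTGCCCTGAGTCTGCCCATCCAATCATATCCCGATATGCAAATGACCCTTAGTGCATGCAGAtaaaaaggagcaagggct
Aldh1a7: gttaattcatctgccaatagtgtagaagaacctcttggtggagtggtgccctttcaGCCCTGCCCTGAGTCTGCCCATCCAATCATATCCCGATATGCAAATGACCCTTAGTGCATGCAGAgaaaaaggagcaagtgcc
The normalized counts of both genes were without overlap between the genotypes, while their shares of all gene counts overlapped. Neither log2 fold change (-0.46 and -0.21) passed edgeR's test.

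*Cyp26a1* (chromosome 19, 37697798 to 37701536, plus strand) encodes the P450 that hydroxylates retinoic acid and is known as a gene that retinoic acid induces. Its counts were 2761, 3784 and 2257 in WT mice and 1279.96, 2696 and 2553 in *Fmo5*-/- mice. The genotypes overlapped, with the third WT mouse below 2 of the *Fmo5*-/- mice. The means were 2934 ± 778 and 2176 ± 779 (SD, n = 3 each), and the coefficients of variation of 26.5% and 35.8% were large beside those of *Rbp4*. The log2 fold change was -0.43 with a 95% confidence interval from -1.27 to 0.41 (edgeR adjusted p = 0.523).

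The *Cyp26a1* promoter is shown because it was the only window of the 9 genes with AGNTCANNNNNAGNTCA, the direct repeat with a spacer of 5 bases (DR5) known as a site for retinoic acid receptors. The repeat lies on the minus strand at -32 to -16 from the RefSeq start and is in capitals, in the bases from -150 to -12 (GRCm38.p6, chr19:37697658-37697796, plus strand, 5′ to 3′).
Cyp26a1: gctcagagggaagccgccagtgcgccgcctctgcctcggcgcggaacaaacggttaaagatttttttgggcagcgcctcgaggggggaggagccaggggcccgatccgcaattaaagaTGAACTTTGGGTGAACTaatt
Of all 32851 windows, 0.204% held these letters on either strand. The antioxidant response element TGACNNNGC, searched on both strands, was in none of the 14 windows, against 12.4% of all windows. No match of one motif in these windows overlapped a match of another.

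The other CYP26 genes were lower in mean but did not pass the test. *Cyp26c1*, 4.4 kb from *Cyp26a1*, had counts of 93.2, 245 and 112 in WT mice and 81, 162 and 96.2 in *Fmo5*-/- mice (log2 fold change -0.40, edgeR adjusted p = 0.622). *Cyp26b1* had counts of 699, 1375 and 244 in WT mice and 198, 546 and 97.2 in *Fmo5*-/- mice (log2 fold change -1.46, edgeR adjusted p = 0.443). Within each genotype, 1 mouse was the highest in all 3 CYP26 genes. Mice are numbered here only to name them, and the numbers pair no WT with an *Fmo5*-/- mouse.

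The plot of fold changes sets the interval of *Retsat*, which ends at -0.43, beside the intervals of the other 8 genes. Those of *Rbp4*, *Aldh1a1* and *Aldh1a7* also lay below 0, before adjustment for the number of genes tested, and those of the other 5 included 0.

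**Figure D3:**
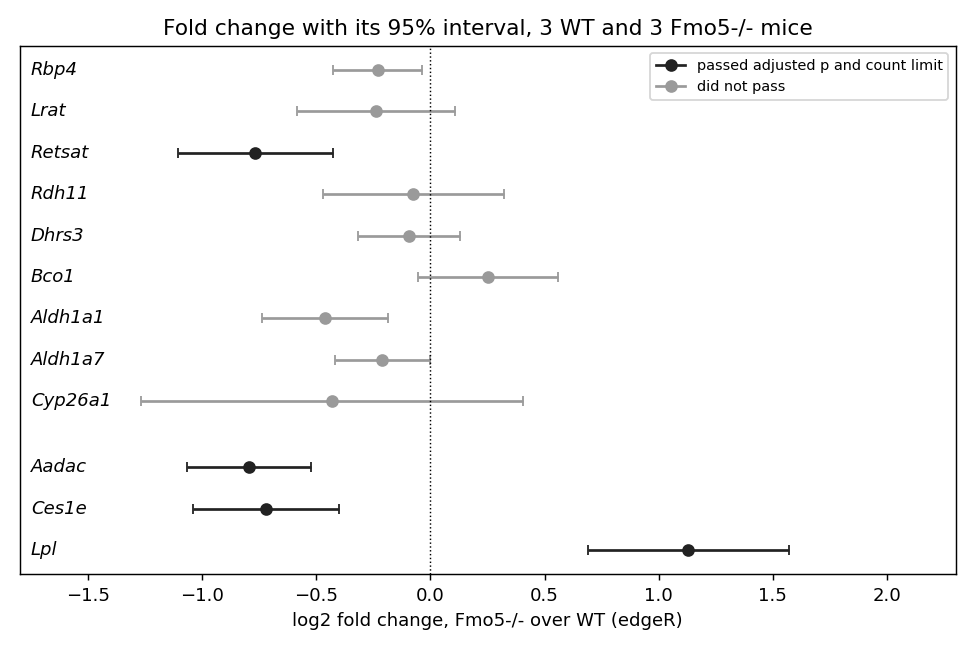
Log2 fold change, *Fmo5*-/- over WT, from edgeR (x axis) with its 95% confidence interval for the 9 genes and, below them, for the 3 other retinoid pathway genes that were called. Black points passed the test and the limit on the count, which among the 9 genes holds for *Retsat* at -0.77, and grey points did not.

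The rest of the retinoid pathway was described from 8 lists that hold 67 other genes, also chosen with earlier results of these data known. Of these, 58 were tested and 39 had a mean of 500 or more, and 3 were called by edgeR, 2 lower and 1 higher in *Fmo5*-/- mice, against 0.753% of all genes tested and 1.61% of those with a mean of 500 or more. All 3 were of the list of retinyl ester synthesis and hydrolysis. The mean was lower in *Fmo5*-/- mice for 36 of the 58 and higher for 22, with a median log2 fold change of -0.081. Of all genes tested 49.2% had a lower mean, and 64% of those with a mean of 500 or more. DESeq2 called 9 of the 57 to which it gave an adjusted p, 6 lower and 3 higher, and the 9 include the 3 of edgeR. Of its tested genes, DESeq2 called 4.78%, a share that includes genes with a mean under 500, which could not be called.

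*Aadac*, a deacetylase of the endoplasmic reticulum in hepatocytes that hydrolyses esters of lipids and drugs, fell from a mean of 25979.8 ± 1591 to one of 14983 ± 2226 (SD, n = 3 mice of each genotype; log2 fold change -0.79, edgeR adjusted p = 0.0239). *Ces1e*, a carboxylesterase of the same compartment, fell from 13752 ± 889 to 8346 ± 1687, with a log2 fold change of -0.72 (edgeR adjusted p = 0.0479). In both, every *Fmo5*-/- mouse was below every WT mouse, as for *Retsat*. *Lpl*, the lipase that acts on the lipid and retinyl ester of plasma lipoproteins, had counts of 503, 513 and 505 in WT mice and 1131, 1411 and 788 in *Fmo5*-/- mice. It rose by a log2 fold change of 1.13 (edgeR adjusted p = 0.043). Of the 6 fits without 1 library, 3 called *Aadac*, 2 called *Lpl* and 1 called *Ces1e*, and none of the 3 genes was called without the first or the third WT mouse or the first *Fmo5*-/- mouse. The call of *Ces1e* was also lost with TMM without the 20 most abundant genes and without the robust option. That of *Lpl* was lost with the reads of 1 strand. With the limit of 500 before the fit, both were lost and *Aadac* was still called. The carboxylesterase genes of the *Ces1* cluster are related in sequence, and how many of their reads fit more than 1 of them and so went uncounted was not measured. The most abundant others of the list, *Ces1d* and *Ces1f*, had log2 fold changes of -0.47 and -0.38. They were called by DESeq2 (adjusted p = 0.0483 and 0.0348) but not by edgeR with the filter on low counts (adjusted p = 0.162 and 0.119). With no filter edgeR called both, as it did 981 of all 34200 genes then tested.

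Of the 47 genes tested in the other 7 lists, edgeR called 0, with 16 at an unadjusted p under 0.05, against 21.8% of all genes tested. Without the first WT mouse edgeR called 1, *Hsd17b6*, and with no filter on low counts it called 6, *Adh4*, *Aox1*, *Aox3*, *Dhrs4*, *Lrp1* and *Rdh16f2*. Over all genes tested in these settings, edgeR called 33 of 17224 without the first WT mouse and 981 of 34200 with no filter. DESeq2 called 4 of the 47, against 4.78% of its tested genes. The called genes of these lists are named for their calls, after their values were seen. *Hsd17b6* and *Rdh16f2*, of the list of retinol and retinal interconversion, were higher, with edgeR log2 fold changes of 0.97 and 0.55 and no overlap (DESeq2 adjusted p = 0.000496 and 0.00976, edgeR adjusted p = 0.1 and 0.0818). *Aox1* and *Aox3*, aldehyde oxidases, were lower (DESeq2 adjusted p = 0.0363 and 0.0489). Among genes that interconvert retinol and retinal, 14 of the 21 tested had a lower and 7 a higher mean, 2 were lower and 4 higher without overlap (13.5% and 13.9% of all genes tested), and the most abundant were *Adh1*, an alcohol dehydrogenase that oxidizes retinol, at -0.049 on the log2 scale, and *Rdh7*, a retinol dehydrogenase, at -0.12. Of the 5 genes listed for retinoic acid synthesis beside the 9, 4 had a lower mean. *Aox3* had means of 60011 ± 1773 and 47377 ± 6604 (edgeR adjusted p = 0.135, without overlap). As given above, it was called by DESeq2 and, with no filter on low counts, by edgeR. *Aldh8a1* had a log2 fold change of -0.22 (edgeR adjusted p = 0.274). *Bco2*, which cleaves carotenoids eccentrically, had a log2 fold change of -0.12 (edgeR adjusted p = 0.45), and *Isx*, a repressor of *Bco1* in the gut, was not tested for lack of counts.

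In the list of transport and binding, 5 of the 6 genes tested had a higher mean in *Fmo5*-/- mice, and *Ttr* a lower one. *Lrp1*, a receptor for remnant lipoproteins, had means of 42311 ± 7707 and 53060.0 ± 5188 (edgeR adjusted p = 0.21, with overlap). The receptor list of 6 genes had a median log2 fold change of 0.086, and its most abundant genes, *Rxra* and *Rxrb*, were at -0.0027 and 0.062. *Rara* and *Rarg*, retinoic acid receptors named after their values were seen, were the 2 of the 6 without overlap, both with higher counts in *Fmo5*-/- mice, at 0.30 and 0.42 on the log2 scale (edgeR adjusted p = 0.09 and 0.121), against 13.9% of all genes tested. Of 7 tested genes known to respond to retinoic acid, 4 had a lower and 3 a higher mean. The most abundant of these, *Pck1* and *Tgm2*, were at 0.39 and 0.22 on the log2 scale and were not called (edgeR adjusted p = 0.656 and 0.268).

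**Figure D4:**
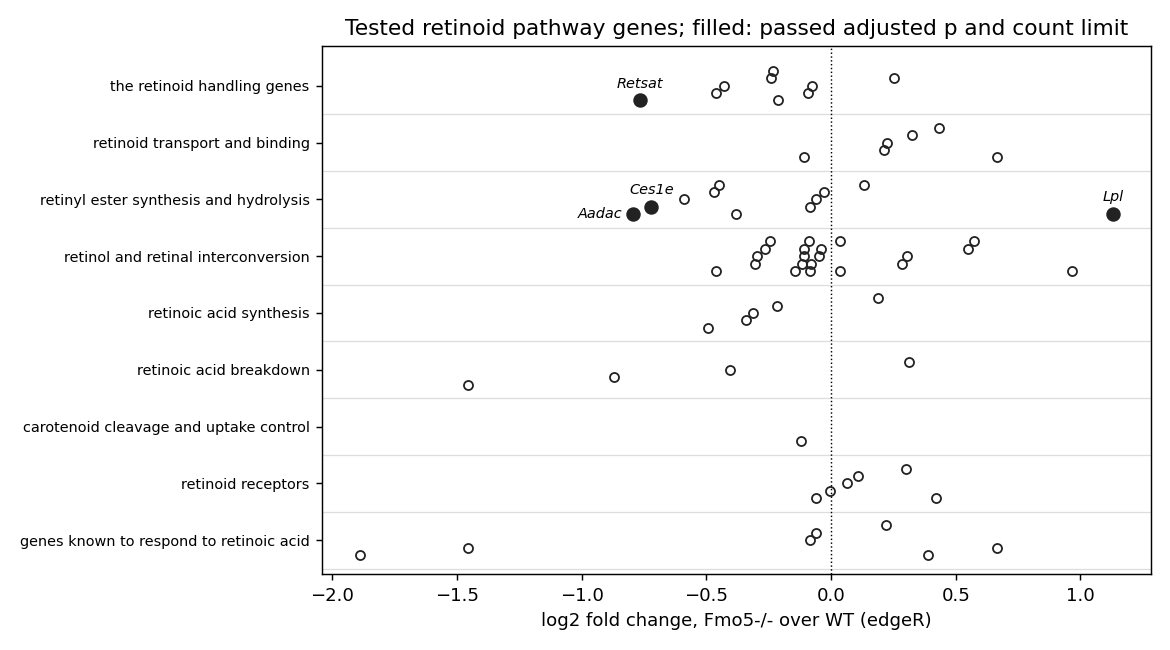
Log2 fold change, *Fmo5*-/- over WT, from edgeR (x axis) of each tested gene of the 9 retinoid handling genes and of the 8 retinoid pathway lists (y axis, with offsets only to separate points). Filled points are the called genes, *Retsat*, *Aadac*, *Ces1e* and *Lpl*, and open points did not pass.

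Among the 7818 other genes with a mean of 500 or more, those whose log2 CPM (counts per 1e6 counts) followed *Retsat* most closely over the 6 libraries were *Akr1c19*, *Sugct* and *Adk*, with Pearson's r of 0.9962, 0.9961 and 0.9959. Both genotypes enter these values, which describe 6 libraries and were not tested. *Akr1c19* encodes an aldo-keto reductase, *Sugct* a CoA transferase of glutarate breakdown and *Adk* adenosine kinase. In all 3 the *Fmo5*-/- mice lay below the WT mice, with log2 fold changes of -0.74, -0.49 and -0.31, and none was called (edgeR adjusted p = 0.0556, 0.062 and 0.104).

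Single mice weighed differently on the 9 genes. The third WT mouse was the lowest of its genotype in 5 of them (*Retsat*, *Lrat*, *Aldh1a1*, *Aldh1a7* and *Cyp26a1*) and the highest in 2 (*Rdh11* and *Bco1*). The second *Fmo5*-/- mouse was the highest of its genotype in 6, but the lowest for *Retsat* and *Rdh11*. Leaving out each library in turn kept *Rbp4* between -0.25 and -0.22 and moved *Cyp26a1* between -0.61 and -0.16 and *Lrat* between -0.46 and -0.12 on the log2 scale. *Dhrs3* lay between -0.18, without the second WT mouse, and -0.039, without the first. The difference in the mean log2 ratio of *Rbp4* to *Ttr*, -0.13 with all mice, lay between -0.215 without the third WT mouse and -0.039 without the second. That of *Aldh1a7* to *Aldh1a1* lay between 0.18 and 0.32, that of *Lrat* to the stellate cell markers between -0.49 and -0.34, and that of *Retsat* to *Rdh11* between -1.05 and -0.48.

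**Figure D5:**
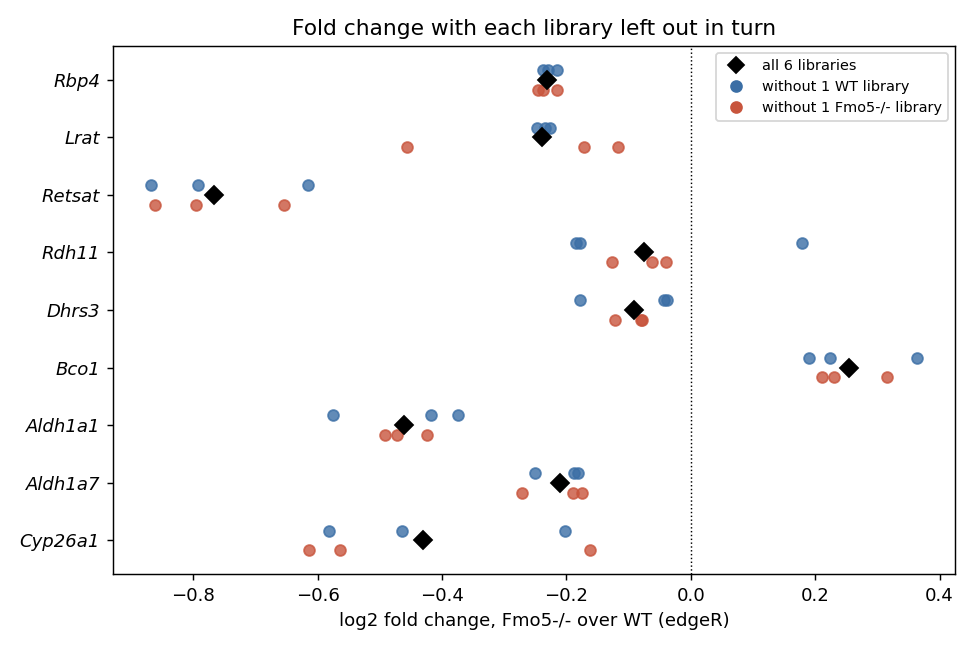
Log2 fold change, *Fmo5*-/- over WT, from edgeR (x axis) of the 9 genes with all 6 libraries (black) and without 1 WT (blue) or 1 *Fmo5*-/- (red) library. The points of *Rbp4* lie between -0.25 and -0.22, and *Rdh11* crosses 0 to 0.18 without the third WT mouse.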

How the data were processed

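RNA extracted from frozen livers of 3 WT and 3 *Fmo5*-/- mice was sequenced on a NextSeq 500 with single reads of 75 bases. The authors clipped adapters, aligned reads to mm10 using STAR 2.6.0c, and deposited the counts per gene that STAR gave, of both strands and of each strand alone. They also deposited a table of their DESeq2 1.22.2 comparison. Its signal columns hold the deposited counts divided by a size factor per library, which was checked to within a relative deviation of 5.49e-06. Its log2, score and p-value columns hold the authors' own fold changes, standard errors, Wald statistics and tests, which were not used. The annotation release is not given in the sources used here, and GENCODE vM21 was used for positions and exon lengths. *Rbp4*, *Aldh1a1* and *Cyp26a1* were matched to it without the version of their identifier.

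Counts of both strands were analysed in R 4.3.3. Genes were kept by filterByExpr of edgeR 4.0.16 (minimum count 10), scaled by TMM and compared by the robust quasi-likelihood test, with Benjamini-Hochberg adjustment over 16734 genes. The threshold of 0.05 and the limit of 500 on the mean follow the study. No source says that libraries of a genotype came from separate litters, so p-values measure the spread between these mice. The strands held 48.06% to 52.73% of the reads of each of the 9 genes, so counting was without strand. Of the reads, 10.4% to 13.1% had several places in the genome and went uncounted. Ratios were compared by two-sided exact permutation tests. The genes and lists were chosen with earlier results of these data known. Genes named are *Fmo5*, the 9 genes, called genes and the 2 most abundant of each pathway list, and the 3 genes most like a called gene. Genes named outside this rule after their values were seen are *Hsd17b6*, *Rdh16f2*, *Aox1*, *Adh4*, *Dhrs4*, *Rara*, *Rarg* and *Fgf21*. Marker genes named beside these are examples from their lists. Alternatives were DESeq2 1.42.0, RLE factors, TMM without the 20 most abundant genes, no filter except at least 1 count, the limit of 500 before the fit, the reads of 1 strand, a fit without the robust option, 1 normalized count added to both terms of a ratio, and leaving out each library. The fits were tested on simulated data. Sequences are from RefSeq (GRCm38.p6), aligned with Biopython.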

Additional observations from a re-analysis of the deposited data

How the results depend on the processing

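DESeq2 gave 744 differentially expressed genes in place of 126, 3 of the 9 retinoid handling genes in place of 1 and 9 pathway genes in place of 3. With no filter on low counts these numbers were 981, 2 (*Retsat* and *Aldh1a1*) and 11. With the limit of 500 applied ahead of the fit they were 53, 0 and 1, and without the robust option 0 of the 9 genes was called. In these last 2 settings *Retsat* kept its direction, at edgeR adjusted p of 0.0663 and 0.0544, and the cause was not tested. Leaving out 1 library gave 14 to 259 differentially expressed genes, 0 to 2 of the 9 genes and 0 to 3 pathway genes. *Rdh11* ranged from -0.18 to 0.18 over these fits and reversed only without the third WT mouse (0.18), and the other 8 genes kept their direction in every setting run for them. The level per kilobase of *Retsat* minus that of *Dhrs3* in *Fmo5*-/- mice moved from -4.9 to 10.9 with the counts of the 2 strands summed. *Bco1* has no value with the limit of 500 before the fit. No setting moved the median of all genes by over 0.1 on the log2 scale. The largest shift was 0.064, with the limit of 500 before the fit. There *Rbp4* was at -0.17, *Rdh11* at -0.015 and *Dhrs3* at -0.028 on the log2 scale. No paired analysis was possible because the labels give no replicate numbers. With 3 mice per genotype, intervals such as that of *Cyp26a1* (-1.27 to 0.41) leave changes in either direction possible.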

Other observations

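*Fgf21*, a hepatokine gene on the list of genes known to respond to retinoic acid, was chosen for mention after its values were seen. The mean normalized count was 122 ± 30.3 for WT and 32.9 ± 15.8 for *Fmo5*-/- mice (SD, n = 3 per genotype), without overlap, and its log2 fold change of -1.89 had an edgeR adjusted p of 0.0494. Its mean of 77.4 was under the limit of 500, so it was not called.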
